A study of Mus musculus with 12 samples.

Results

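The genes described here are 10 of the 17723 mouse genes with a row in the deposited table of counts. They are Myc, its partner Max, the MAX-binding repressors Mxd1, Mxd4, Mnt and Mga, the D-type cyclins Ccnd1, Ccnd2 and Ccnd3, and the CDK inhibitor gene Cdkn1a. They were found by their gene symbols, and all 10 passed the filter on low counts that left 16306 genes for testing. They were proposed with results of the same libraries in view, so their levels, fold changes and calls are given here as a description, without p-values. The RNA came from bone marrow-derived macrophages (BMDMs), which are macrophages grown in culture from the marrow of wild-type C57BL/6 mice of 8 to 10 weeks in the growth factor M-CSF, at 20 ng/ml during differentiation and 5 ng/ml afterwards. For 24 h the cells were left untreated, or were given the type 2 cytokine IL-13 at 2 ng/ml, the secreted Wnt antagonist DKK1 at 30 ng/ml, or both (IL-13 + DKK1), with 3 biological replicates in each of the 4 groups. M-CSF was thus common to all groups, no allele differed between them, and the number of mice that gave the marrow was not stated, so p-values measure the spread between these samples only. The comparisons ask what DKK1 does to these genes in resting macrophages and in macrophages that IL-13 has activated.

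MYC is a transcription factor that binds DNA as a pair with MAX at E-boxes and raises genes of ribosome production, nucleotide synthesis and cell growth. MXD1, MXD4, MNT and MGA bind MAX too, occupy the same kind of site and repress, so that the network is often described as a balance between MYC and these partners. The D-type cyclins are made in response to growth factors, activate CDK4 and CDK6 and so lead to phosphorylation of RB and release of E2F. The product of Cdkn1a, p21, inhibits cyclin-dependent kinases and is a classical target of p53. In macrophages, M-CSF is the growth factor that drives Myc and the D-type cyclins.

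Each library held 32224036 to 40917086 counts, and levels are given as CPM, the count per 1000000 counts of the library, after scaling by TMM, a factor between 0.945 and 1.043 per library. A gene was called where the adjusted p of edgeR's quasi-likelihood test was under 0.05 over all genes tested and the absolute log2 fold change was above 1. The macrophage markers were all present, 9 of 9, with a summed level of 21089 to 45687 CPM, and the one T and NK cell marker of 6 that was measured stayed under 0.55 CPM. Low counts were even numbers more often than not (76.0% of counts from 1 to 20 and 65.3% of counts from 37 to 111, against 51.6% above 1000), so the number of independent fragments behind a low count is uncertain. In RNA of a whole culture, fewer cells that express a gene and less RNA per cell cannot be told apart.

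The 250 bases before the start of the canonical transcript are shown for Myc, because it varied most within its network. They are read 5′ to 3′ on the strand of the gene from the mouse genome GRCm39 (GENCODE vM39 annotation), at chr15:61856977-61857226. Capitals mark GC boxes (GGGCGG on either strand) and 1 TATA-type match (TATAAA on either strand).
Myc: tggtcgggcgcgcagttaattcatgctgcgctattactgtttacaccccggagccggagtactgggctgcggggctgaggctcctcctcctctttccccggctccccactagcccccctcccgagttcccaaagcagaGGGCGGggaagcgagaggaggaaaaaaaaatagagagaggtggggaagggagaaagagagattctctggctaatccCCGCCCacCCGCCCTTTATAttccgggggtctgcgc
The Myc window held 3 GC boxes, of which the nearest to the start lay at bases -28 to -23, next to the TATA-type match at -22 to -17. Of 21770 windows of the same length before protein-coding genes, 36.3% held a GC box and 11.9% a TATA-type match. The Myc window did not hold the MYC and MAX E-box (CACGTG, in 6.26% of windows), an AP-1 site (TGANTCA, 6.17%), a TCF/LEF site (CTTTGAT, 2.86%), a STAT6-type palindrome (TTC and GAA separated by 4 bases of any kind, 5.89%), a CRE (TGACGTCA, 1.69%) or an E2F-type site (GGCGGGAA, 2.33%), each searched on both strands. Among the 9 members searched the E-box was found before Max and Mxd4 only, and its surroundings are shown with the E-box in capitals, at chr12:77009010-77009035 for Max and chr5:34345258-34345283 for Mxd4, both on the minus strand.
Max: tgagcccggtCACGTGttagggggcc
Mxd4: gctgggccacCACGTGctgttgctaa
The E-box of Max lay 25 to 20 bases before the start and that of Mxd4 33 to 28 bases before it. The motifs were chosen after the levels had been seen. A match describes the letters and is not a measured binding site.

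Of the 10 genes, 3 were called with DKK1 against untreated, 1 higher and 2 lower, where 11.6% of all genes tested were called (5.18% higher and 6.46% lower). The untreated and DKK1 libraries did not overlap for any of the 10, as for 54.1% of all genes, and 9 had an adjusted p under 0.05 (45.6% of all genes). With IL-13 none of the 10 was called by edgeR or DESeq2, where edgeR called 8.13% of all genes (4.64% higher and 3.49% lower). In edgeR 9 of the 10 had an unadjusted and 8 an adjusted p under 0.05 with IL-13 (47% of all genes by the adjusted p), and 9 did not overlap (54.2%). With both against untreated none was called by either tool, where edgeR called 11.8% of all genes (5.24% higher and 6.59% lower). There 7 had an unadjusted and also an adjusted p under 0.05 (49.5% of all genes by the adjusted p), and 7 did not overlap (57.6%). When DKK1 was added to IL-13, 1 was called lower, where 10.8% of all genes were called (4.66% higher and 6.1% lower), 8 passed the adjusted p alone (44.4%) and 8 did not overlap (52.5%). When IL-13 was added to DKK1, 2 were called higher, where 5.51% were called (3.22% higher and 2.29% lower), 8 passed the adjusted p alone (39.3%) and 7 did not overlap (49.2%). The interaction, which is the log2 effect of DKK1 with IL-13 minus that without, called 4 of the 10, with 3 positive and 1 negative, against 4.62% of all genes (2.12% positive and 2.5% negative), and 6 passed the adjusted p alone (26.3%). The same libraries enter several of these comparisons, and the genes were chosen with these contrasts in view, so the shares are set side by side without a reading. The median log2 fold change of the 10 with DKK1 was -0.19, beside -0.04 over all genes tested.

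Myc was the member of its network that varied most. It was low with DKK1 alone, and in cells given IL-13 as well it was at the untreated level. The gene lies at chr15:61857227-61862223 on the plus strand of GRCm39, and its canonical transcript has 3 exons. In order of level, the 3 untreated libraries held 16.3, 19.1 and 21.7 CPM of Myc. With DKK1 they held 2.22, 2.60 and 2.81 CPM, from counts of 72 to 86. With IL-13 they held 31.7, 33.2 and 34.1 CPM. With both they held 17.9, 19.6 and 21.4 CPM. DKK1 alone therefore gave the lowest libraries by a wide gap, IL-13 alone the highest, and the untreated libraries overlapped those with both. With DKK1 the level fell 7.49-fold (log2 fold change -2.90 ± 0.12 SE, n = 3 against 3). With IL-13 it was 1.73-fold the untreated level (0.79 ± 0.09), without overlap and under the fold threshold. When DKK1 was added to IL-13, Myc differed by -0.75 ± 0.09 on the log2 scale, again below the threshold. Against DKK1 alone, IL-13 + DKK1 was called higher by 7.71-fold (2.95 ± 0.12). The log2 effect of DKK1 with IL-13 minus its effect without was 2.15 ± 0.16 and was called. IL-13 + DKK1 differed from untreated by 0.04 ± 0.09, a value whose sign changed with the scaling of the libraries and with the left-out library.

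**Figure D1:**
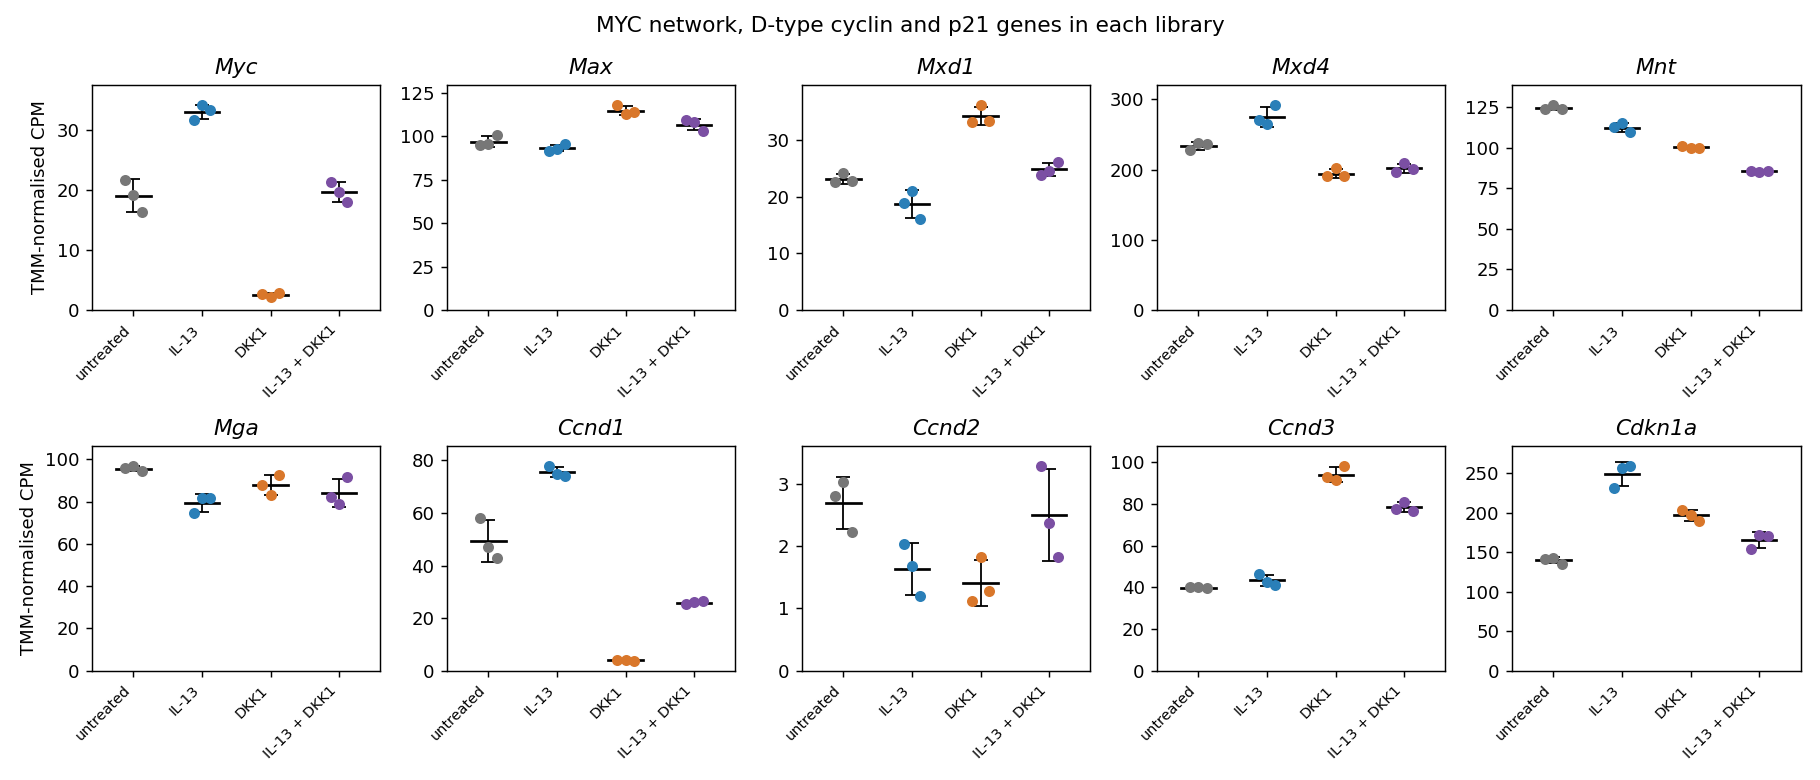
TMM-normalised CPM (y axis, from 0) of the 10 genes in each of the 12 libraries, by group on the x axis. Points are libraries, the long bar is the mean and the error bars are the SD of 3 libraries. Myc lies at 2.22 to 2.81 CPM with DKK1 and at 16.3 to 34.1 CPM in the other groups, and Ccnd1 at 3.88 to 4.23 CPM with DKK1 against 25.2 to 77.8 CPM elsewhere.

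Max, the partner that MYC and its antagonists share, was steady by comparison (chr12:76984043-77009009, minus strand). Its libraries ranged over 95.0, 95.4 and 100.5 CPM untreated, 91.7, 92.8 and 95.3 CPM with IL-13, 113.0, 113.7 and 117.8 CPM with DKK1, and 103.0, 108.2 and 109.1 CPM with both. The DKK1 libraries were the highest and the IL-13 libraries overlapped the untreated ones. The highest group mean was 1.23 times the lowest, against 13 times for Myc. Per kb of the union of annotated exons, Max exceeded Myc 2.77- to 3.92-fold in the untreated libraries and 25.7- to 32.2-fold with DKK1.

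None of the 4 repressors was called by edgeR or DESeq2 in any of the 5 comparisons between groups or in the interaction. Since edgeR called 4.62% to 11.8% of all genes in these, the absence of calls among 4 genes says little about them. In each, 2 to 4 of them had an unadjusted edgeR p under 0.05. Mxd1, an antagonist of MYC that is known for its rise during differentiation, had the widest range of them (chr6:86624024-86646218, minus strand). It measured 22.5, 22.7 and 24.1 CPM untreated, 16.1, 18.8 and 20.97 CPM with IL-13, 33.2, 33.3 and 36.1 CPM with DKK1 and 23.9, 24.4 and 26.1 CPM with both. Its order was thus the reverse of that of Myc at both ends: highest with DKK1 and lowest with IL-13, with overlap between untreated and both. The log2 fold change with DKK1 was 0.57 ± 0.08 and that with IL-13 was -0.31 ± 0.08. Per kb of exon union the Myc level was 1.92 to 2.59 times that of Mxd1 in untreated libraries, 4.36 to 5.53 times with IL-13 and 1.84 to 2.40 times with both. With DKK1 alone the order of the pair was turned, and Mxd1 exceeded Myc 4.43- to 6.05-fold. The same order held when the longest annotated transcript was used as the length (5.67- to 7.74-fold).

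Mxd4, a further MXD repressor (chr5:34331227-34345240, minus strand), followed the opposite course. Its group means were 234 CPM untreated, 275 with IL-13, 194 with DKK1 alone and 202 with both, and the libraries of the last pair overlapped. The log2 fold change of Mxd4 was 0.24 ± 0.04 with IL-13 and -0.26 ± 0.04 with DKK1. Mnt, a broadly expressed antagonist (chr11:74721338-74736836, plus strand), was lower in every treated group, with means of 124.7 CPM untreated, 113 with IL-13, 100.4 with DKK1 alone and 85.5 with both. No library of one group overlapped another for Mnt, and the log2 fold change of both against untreated was -0.54 ± 0.04. Mga, the large scaffold that joins MAX to a Polycomb complex (chr2:119727694-119800062, plus strand), had means of 95.6 CPM untreated, 79.4 with IL-13, 87.9 with DKK1 alone and 84.2 with both. The 3 treated groups of Mga overlapped their neighbours, and only the untreated libraries stood clear, at 94.4 to 96.7 CPM.

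Among the D-type cyclins, DKK1 was accompanied by a fall of Ccnd1 and a rise of Ccnd3. Ccnd1, the cyclin D1 gene, lies at chr7:144483668-144493662 on the minus strand and has 5 exons. Its untreated libraries held 43.0, 46.9 and 58.2 CPM. With DKK1 they held 3.88, 3.96 and 4.23 CPM, from counts of 119 to 137. With IL-13 they held 74.2, 74.8 and 77.8 CPM, and with both 25.2, 26.1 and 26.4 CPM. All 4 groups were separate, in the order DKK1, both, untreated, IL-13. Ccnd1 fell 12.2-fold with DKK1 (-3.61 ± 0.10) and fell 2.92-fold when DKK1 was added to IL-13 (-1.54 ± 0.08). Against DKK1 alone, IL-13 + DKK1 was called higher by 6.43-fold (2.68 ± 0.11), and the interaction of 2.07 ± 0.13 was called. Unlike Myc, Ccnd1 stayed below the untreated level with both, by -0.93 ± 0.08 on the log2 scale. That difference lay just inside the fold threshold and was called, at -1.02, when the third untreated library was left out. LTO1, a gene whose exons overlap Ccnd1 on the other strand, measured 21.8 to 27.1 CPM across all 12 libraries.

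Ccnd3, the cyclin D3 gene, spans chr17:47815767-47910624 on the plus strand. It measured 39.6, 40.0 and 40.2 CPM untreated and 41.2, 42.6 and 46.4 CPM with IL-13. With DKK1 it measured 91.4, 92.8 and 98.2 CPM, and with both 76.5, 77.9 and 81.1 CPM. The groups with DKK1 lay far above those without it, whether or not IL-13 was present. Ccnd3 rose 2.36-fold with DKK1 (1.24 ± 0.05), and its difference with both was 1.97-fold (0.97 ± 0.05), under the threshold. Bysl, which overlaps exons of Ccnd3 on the other strand, had a mean of 12.2 CPM untreated, 12.8 with IL-13, 14.1 with DKK1 alone and 18.7 with both.

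Ccnd2, the cyclin D2 gene (chr6:127102125-127129156, minus strand), was barely detected, with 37 to 111 counts per library. Its libraries held 2.22, 2.81 and 3.03 CPM untreated, 1.20, 1.67 and 2.03 CPM with IL-13, 1.12, 1.27 and 1.82 CPM with DKK1 and 1.82, 2.37 and 3.28 CPM with both. Neighbouring groups in the order of levels overlapped throughout. The untreated libraries did not overlap those with DKK1 alone or those with IL-13 alone. The log2 fold changes were -0.93 ± 0.26 with DKK1, -0.72 ± 0.26 with IL-13 and -0.11 ± 0.25 with both. The interaction, 1.54 ± 0.37, was called. The difference with DKK1 crossed the fold threshold without the third untreated library (-1.05), without the second DKK1 library (-1.15) and with scaling by library size alone (-1.05), so its call rests on single libraries of few counts.

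Per length, the leading D-type cyclin was Ccnd1 in the groups without DKK1 and Ccnd3 in the groups with it. With the union of annotated exons as length (4783 bases for Ccnd1 and 9245 for Ccnd3), Ccnd1 made up 66.5% to 72.4% of the summed D-type cyclin CPM per kb in untreated libraries and 75.7% to 77.2% with IL-13. With DKK1 it made up 7.02% to 8.07%, and with both 37.5% to 39.5%. Ccnd2 never exceeded 2.48% of the sum. With the longest transcript as length (3862 and 3858 bases) the order of Ccnd1 and Ccnd3 was the same in all 4 groups, with Ccnd1 at 51.2% to 58.1% untreated and 3.77% to 4.37% with DKK1. For DKK1 alone against untreated, the direction of the sum of the cyclins itself depended on the length used. The sum was 14.9 ± 1.70 CPM per kb untreated and 11.2 ± 0.346 with DKK1 by exon union, but 23.6 ± 2.14 and 25.7 ± 0.874 by the longest transcript (SD, n = 3). With IL-13 alone the sum was above untreated by either length, at 20.7 ± 0.732 and 31.1 ± 1.25. With both it was below IL-13 alone by either length, at 14.2 ± 0.260 and 27.4 ± 0.612.

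**Figure D2:**
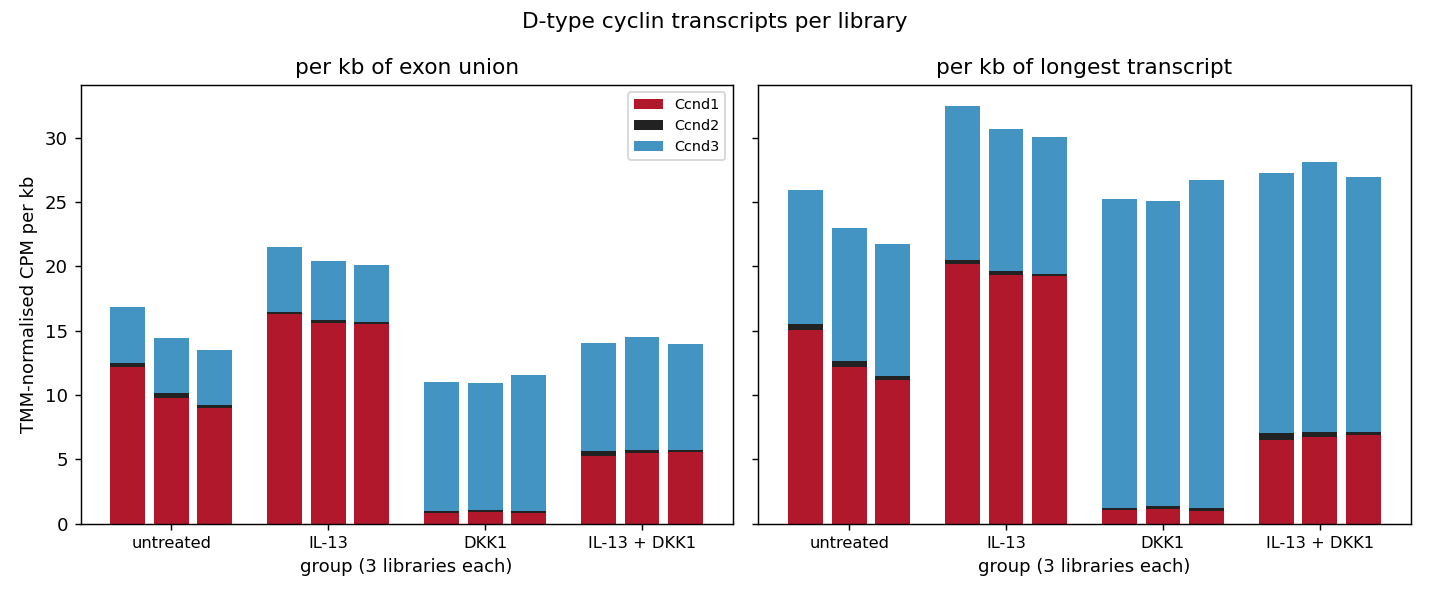
Stacked TMM-normalised CPM per kb of Ccnd1, Ccnd2 and Ccnd3 (y axis, from 0) in each of the 12 libraries, grouped on the x axis, with the exon union (left) or the longest transcript (right) as gene length. Ccnd1 is the largest share in untreated and IL-13 libraries and Ccnd3 in all libraries with DKK1, where Ccnd1 is 7.02% to 8.07% of the exon-union sum without IL-13.

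Cdkn1a, the p21 gene (chr17:29309936-29319701, plus strand), was 1 of 3 members, with Ccnd2 and Mga, for which the log2 value with DKK1 had opposite signs without and with IL-13. It measured 135.3, 141.4 and 142.4 CPM untreated, 231, 256 and 259 CPM with IL-13, 189, 197 and 204 CPM with DKK1 and 153, 170.1 and 172.0 CPM with both. All groups were separate, in the order untreated, both, DKK1, IL-13. The log2 fold change was 0.49 ± 0.05 for DKK1 against untreated and -0.59 ± 0.05 for DKK1 added to IL-13, neither past the fold threshold. The interaction between them, -1.08 ± 0.07, was called. With IL-13 alone Cdkn1a differed by 0.83 ± 0.05. Dino, a transcript of the other strand that overlaps Cdkn1a exons, stayed at or under 2.0 CPM.

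**Figure D3:**
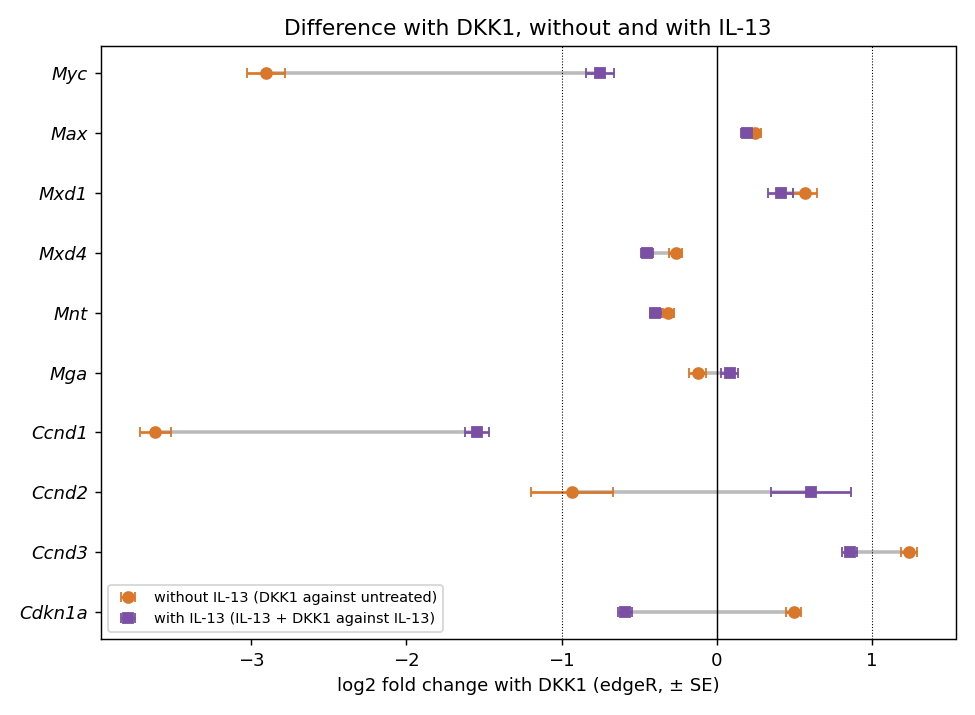
Log2 fold change with DKK1 (x axis, edgeR, bars ± SE) of each gene (y axis) without IL-13 (circles, 3 DKK1 against 3 untreated libraries) and with IL-13 (squares, 3 IL-13 + DKK1 against 3 IL-13 libraries). Dotted lines mark a log2 fold change of 1 in either direction. For Myc the value moves from -2.90 to -0.75, for Ccnd1 from -3.61 to -1.54 and for Cdkn1a from 0.49 to -0.59, while the sign turns for Mga, Ccnd2 and Cdkn1a only.

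Other genes around the network were read from companion lists, for which the whole-table adjusted p is given. The lists too were chosen with results of these data known, and many of the named genes were picked by their adjusted p. Their p-values therefore describe the genes picked and are not independent tests. Over all genes tested, edgeR called 11.6% with DKK1 and 8.13% with IL-13. Of the 5 tested of the other MAX and MLX network genes, Mxd3, an MXD repressor linked to S phase, rose with IL-13 (1.52 ± 0.17, adjusted p = 2.1e-07 in edgeR) and fell with DKK1 (-1.24 ± 0.21, adjusted p = 3.0e-05), at 2.94 to 4.50 CPM untreated. Mycl was called lower with DKK1, on 24, 26 and 50 counts untreated and 2, 2 and 10 with DKK1. It had no count in any library with both, so no fold is given. Mxi1 (0.38 ± 0.05 with DKK1 and -0.38 ± 0.05 with IL-13) and Mlx (0.24 ± 0.07 and -0.04 ± 0.07) were not called. Of 21 MYC cofactors and turnover genes, none was called by edgeR or DESeq2 in any of the 6 comparisons. An unadjusted edgeR p under 0.05 was reached by 10 of them with DKK1 and by 10 with IL-13.

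Of 24 tested genes that MYC is known to raise, DKK1 had 1 called higher and 1 lower, where 11.6% of all genes were called in either direction, with a median log2 fold change of -0.25 beside -0.04 over all genes. The one higher was Ldha, the lactate dehydrogenase A gene, at 371 to 399 CPM untreated and 791 to 838 CPM with DKK1 (1.07 ± 0.04, adjusted p = 9.6e-16 in edgeR). The lower one was Nop58, a nucleolar protein gene, at -1.0 ± 0.09 (adjusted p = 5.6e-09). Its call lay at the threshold and was lost under 8 alternatives, for example without the first DKK1 library (-0.90). By the adjusted p alone, 15 of the 24 were lower and 3 higher with DKK1 (45.6% of all genes in either direction). With IL-13, 3 of the 24 were called higher (4.64% of all genes) and none was called lower. The 3 were the transferrin receptor gene Tfrc (2.51 ± 0.05, adjusted p = 6.5e-20 in edgeR), the folate enzyme gene Mthfd2 (1.33 ± 0.08, adjusted p = 8.5e-12) and Nme1 (1.25 ± 0.13, adjusted p = 6.1e-08). By the adjusted p alone, 19 were higher and 1 lower with IL-13 (47% of all genes in either direction). The median was 0.38 beside -0.02 over all genes.

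Cdk6, a catalytic partner of the D-type cyclins, fell with DKK1, as did Ccnd1. Of 15 tested CDK4/6, RB and E2F genes, 2 fell with DKK1, where 6.46% of all genes were called lower. They were Cdk6 (-1.93 ± 0.09, adjusted p = 7.4e-14 in edgeR) and E2f7 (-1.07 ± 0.15, adjusted p = 2.9e-06). The call of E2f7 was lost without the second untreated library (-0.93) and without the first DKK1 library (-0.95). Cdk6 measured 49.7 to 65.6 CPM untreated, 13.3 to 17.0 CPM with DKK1 and 25.2 to 27.9 CPM with both, and with IL-13 alone it differed from untreated by -0.05 ± 0.08. Cdk4, the other partner of these cyclins, was at -0.21 ± 0.05 with DKK1 and 0.53 ± 0.05 with IL-13, Rb1 at 0.33 ± 0.06 and -0.07 ± 0.06, and E2f1 at 0.12 ± 0.07 and 0.57 ± 0.06, none of them called. With IL-13, 4 of the 15 rose, where 4.64% of all genes were called higher. They were E2f2, E2f7, E2f8 and Rbl1 (1.01 to 2.23 on the log2 scale). E2f2 was not called (0.94 to 0.99) when either of the first and second untreated libraries, or either of the first and the third IL-13 libraries, was left out.

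Of 6 tested CDK inhibitor genes other than Cdkn1a, 4 fell with DKK1 (6.46% of all genes were called lower), with a median of -1.34. Cdkn2c, an inhibitor of CDK4 and CDK6, was the only one of the 4 above a few CPM (49.6 to 73.5 CPM untreated and 25.7 to 30.8 CPM with DKK1, -1.11 ± 0.10, adjusted p = 3.7e-09 in edgeR), and its call was lost without the third untreated library (-0.93). Cdkn2a, Cdkn2b and Cdkn1c lay between 1.31 and 2.94 CPM untreated, at -1.91, -1.82 and -1.56. Cdkn1b, the p27 gene, was at 0.58 ± 0.05 with DKK1 and -0.26 ± 0.05 with IL-13 and was not called.

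Of 7 later cyclins and CDKs, DKK1 had 4 called lower and 1 higher, where 6.46% of all genes were called lower and 5.18% higher. Ccnb2 (-2.36 ± 0.10, adjusted p = 1.6e-14 in edgeR), Ccna2 (-1.75 ± 0.10), Ccnb1 (-1.71 ± 0.12) and Cdk1 (-1.16 ± 0.09) serve S phase and mitosis. Ccne1, the G1 to S cyclin E1 gene, was higher, at 2.36 to 2.78 CPM untreated and 4.62 to 5.99 CPM with DKK1 (1.01 ± 0.13, adjusted p = 1.3e-06). That call lay at the threshold and was lost without the third untreated library (0.94), without the second DKK1 library (0.93) and with scaling by library size alone (0.89). With IL-13, 4 of the 7 rose (4.64% of all genes were called higher), led by Ccne1 (2.76 ± 0.12, adjusted p = 5.4e-14 in edgeR). Of 12 proliferation genes, 10 rose with IL-13 (4.64% of all genes), including Mcm5 (2.30 ± 0.06, adjusted p = 4.0e-17 in edgeR) and Rrm2 (2.42 ± 0.06, adjusted p = 2.1e-17). With DKK1 4 fell (6.46% of all genes), including Mki67 (-1.48 ± 0.09, adjusted p = 7.1e-12 in edgeR) and Pcna (-1.22 ± 0.05, adjusted p = 3.4e-14). The summed level of the 12 was 839 to 1031 CPM untreated, 2288 to 2443 CPM with IL-13, 434 to 473 CPM with DKK1 and 919 to 984 CPM with both. The sums overlapped between untreated and both, but most single genes did not. Against untreated, Mcm2 (1.22 ± 0.08), Mcm5 (1.20 ± 0.06) and Rrm2 (1.18 ± 0.06) were called higher with both, while Mki67 had a mean of 184 CPM with both and 334 CPM untreated (-0.86 ± 0.09, not called).

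**Figure D4:**
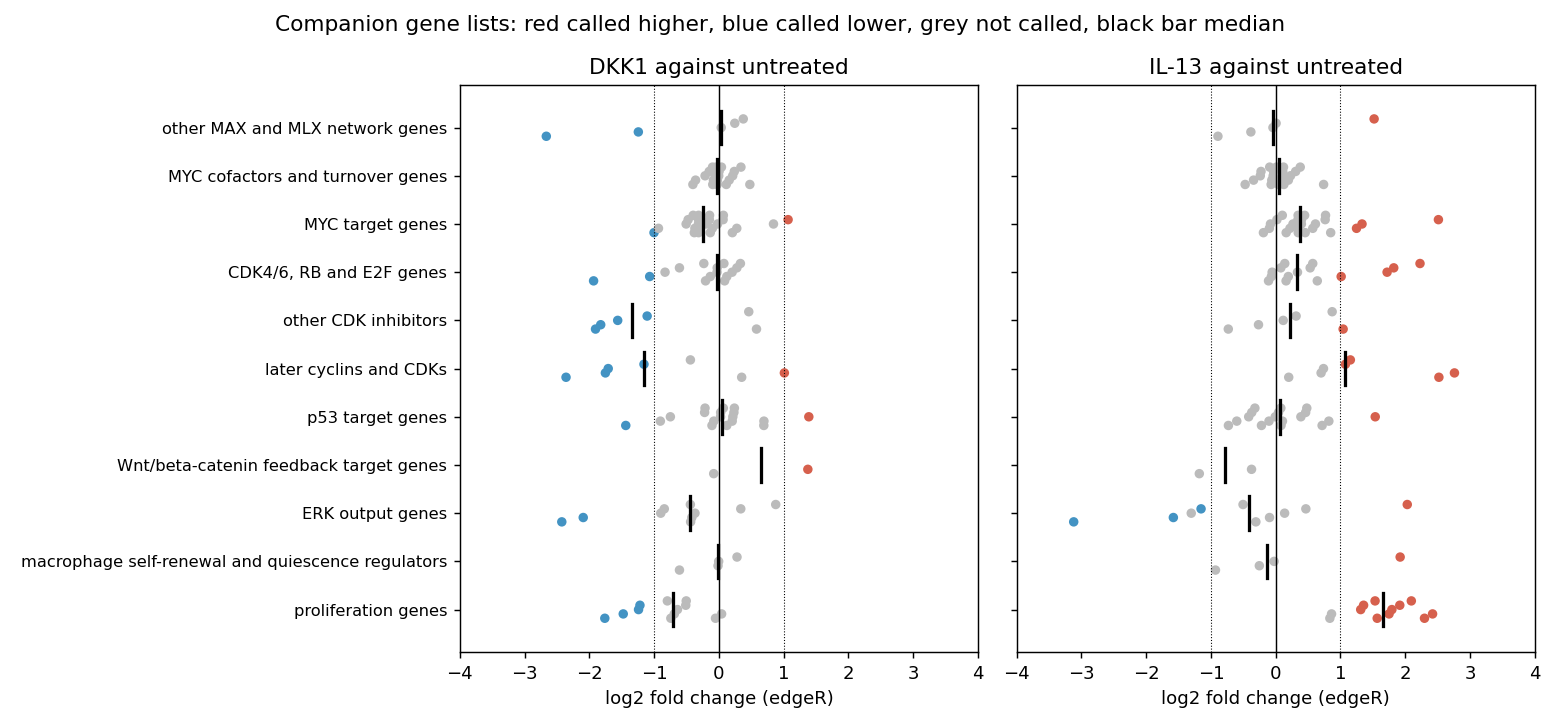
Log2 fold changes (x axis, edgeR) of the tested genes of 11 companion lists (y axis) for DKK1 against untreated (left) and IL-13 against untreated (right), 3 libraries per group. Each point is a gene, red where called higher, blue where called lower and grey where not called, with the median of each list as a black bar and a log2 fold change of 1 in either direction as dotted lines. The proliferation genes have medians of -0.72 with DKK1 and 1.66 with IL-13, while the MYC cofactors and turnover genes lie near 0 in both.

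Of 10 tested ERK output genes, which are induced by growth factor signalling, 2 fell with DKK1, where 6.46% of all genes were called lower. Dusp4, an ERK phosphatase gene, measured 24.2 to 26.5 CPM untreated, 4.44 to 4.85 CPM with DKK1, 98.3 to 108 CPM with IL-13 and 49.0 to 52.0 CPM with both. It took the same order of groups as Myc at its ends, lowest with DKK1 and highest with IL-13, but with both it stayed above untreated. Egr1 fell with DKK1 (-2.09 ± 0.27, adjusted p = 1.2e-06 in edgeR) and with IL-13 (-3.12 ± 0.29, adjusted p = 1.2e-08). With IL-13, 1 of the 10 was called higher and 3 lower (4.64% and 3.49% of all genes), whereas Myc (0.79) and Ccnd1 (0.61) were higher. When DKK1 was added to IL-13, 4 were called higher and 1 lower (4.66% and 6.1%), with a median of 0.55. Myc (-0.75) and Ccnd1 (-1.54) were lower there. With DKK1 against untreated the median of the list was -0.44, and Myc (-2.90) and Ccnd1 (-3.61) were lower too. When IL-13 was added to DKK1, 3 of the 10 were called higher (3.22% of all genes), with a median of 0.36. Myc (2.95) and Ccnd1 (2.68) were also higher there. In the interaction 6 of the 10 were called and all 6 were positive, where 2.12% of all genes were called positive. Myc and Ccnd1 shared that sign, and the interaction median of the list was 1.19 beside 0.02 over all genes. The one with the smallest adjusted p was Etv5 (2.22 ± 0.12, adjusted p = 7.5e-12), an ETS factor gene, at 50.3 to 62.4 CPM untreated, 25.9 to 35.1 CPM with DKK1 and 134 to 141 CPM with both. Wnt signalling through the receptors that DKK1 blocks is read out by feedback genes, of which 2 could be tested. Apcdd1 was called higher with DKK1 on 30 to 46 counts against 6 to 24 untreated (1.37 ± 0.47, adjusted p = 0.021), a call that was lost without the first untreated library (0.98), without the third untreated library (1.37) and without the first DKK1 library (1.20). With both, Apcdd1 was called lower against untreated (-1.76) and against DKK1 alone (-3.13), where 6.59% and 2.29% of all genes were called lower. The former call was lost without the second untreated library (-1.22) and without the third library with both (-1.66). The other of the 2 tested feedback genes was not called with DKK1. Axin2 had no row under its symbol in the deposited table of counts, so it could not be tested.

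Of 18 tested p53 target genes other than Cdkn1a, 1 rose and 1 fell with DKK1, where 11.6% of all genes were called in either direction. They were the death receptor gene Fas (1.39 ± 0.13, adjusted p = 1.0e-08 in edgeR) and Pmaip1 (-1.44 ± 0.25, adjusted p = 4.6e-05). With IL-13 only 1 of the 18 was called, Phlda3, which rose (1.54 ± 0.11, adjusted p = 2.1e-10 in edgeR), where 4.64% of all genes were called higher. In the interaction Phlda3 was again the only 1 of the 18 called, negative like Cdkn1a (-1.62 ± 0.16, adjusted p = 9.3e-08 in edgeR), where 2.5% of all genes were called negative. By the adjusted p alone, 11 of the 18 interactions were negative and 2 positive (26.3% of all genes in either direction). Trp53 itself was at 0.14 ± 0.04 with DKK1 and 0.35 ± 0.04 with IL-13, and Mdm2 at -0.22 ± 0.04 and 0.08 ± 0.04, and none was called. Of 4 macrophage self-renewal and quiescence regulators none was called with DKK1 by edgeR or DESeq2 (2 had an unadjusted edgeR p under 0.05), Klf4 rose with IL-13 (1.92 ± 0.08, adjusted p = 1.3e-14), and Maf rose when DKK1 was added to IL-13 (1.22 ± 0.04, adjusted p = 1.2e-16).

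Markers of other cells moved with some of these groups. The 2 progenitor markers Kit and Cd34 summed to 8.83 to 9.23 CPM untreated, 5.49 to 7.28 with IL-13, 1.60 to 2.90 with DKK1 alone and 2.12 to 2.22 with both. The progenitor sum was low in both groups with DKK1. Myc was low with DKK1 alone, and Ccnd1 was below untreated in both groups with DKK1 (means of 4.02 CPM with DKK1 alone and 25.9 with both, against 49.3 untreated). Of the megakaryocyte and platelet list 4 of 6 were measured, with sums of 181 to 214 CPM untreated, 353 to 393 with IL-13, 2183 to 2565 with DKK1 alone and 3863 to 4055 with both. Nearly all of that sum was Pf4. Ppbp, also on the list, had means of 1.70 CPM untreated, 2.48 with IL-13, 54.9 with DKK1 alone and 127 with both. The surface genes Itga2b and Gp1ba stayed at or under 2.49 CPM. The 8 markers of neutrophils and their precursors, all measured, summed to 671 to 747 CPM untreated, 452 to 664 with IL-13, 455 to 481 with DKK1 alone and 690.0 to 849 with both. This sum was lower with DKK1 alone than in untreated cells and than with both, as Myc was. With IL-13 this sum was below untreated, and Myc was highest. Among these markers, Ly6g stayed at or under 0.894 CPM, and group means were 0.98 to 1.98 CPM for Elane and 1.30 to 2.11 for Mpo. Group means were higher for Camp (9.03 to 26.1 CPM), S100a8 (73.7 to 128), Ltf (101 to 183), Ngp (116 to 225) and S100a9 (144 to 244). The 6 stromal markers summed to 83.4 to 174 CPM untreated, 63.0 to 128 with IL-13, 58.7 to 94.1 with DKK1 alone and 64.7 to 94.5 with both. B cell, dendritic cell and erythroid markers summed to at most 4.83, 1.77 and 0.375 CPM in any library. Macrophage markers summed to 27934 to 28661 CPM untreated, 21089 to 22233 with IL-13, 45015 to 45687 with DKK1 alone and 37398 to 38271 with both. The part of these markers in the levels of the 10 genes was not tested.

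The genes most like the members in pattern were taken by Pearson correlation of log2 CPM over the 12 libraries among 9425 candidate genes, as a description, since libraries of a group share their treatment. For Myc these were Ckap4 (0.989), Abcd2 (0.984) and Tsr1 (0.981), and for Ccnd1 Ets1 (0.991), Abcd2 (0.989) and Tent5c (0.988). Ets1, an ETS transcription factor gene, measured 26.5 to 32.1 CPM untreated, 33.6 to 36.2 with IL-13, 4.02 to 6.24 with DKK1 alone and 15.8 to 16.6 with both. For Ccnd3 they were Aldoa (0.995), a glycolytic enzyme gene, Mefv (0.993) and Parp9 (0.992). Mefv measured 24.6 to 30.8 CPM untreated and 166 to 190.0 CPM with DKK1. For Ccnd2 the best was Pglyrp1, at 0.912. Mxd1 was most like Ube2w, Bvht and Cpq, Mxd4 most like Gm5456, Gm4739 and Dnmt3a, and Cdkn1a most like Atox1, H2-DMa and Pycard. Between members, Myc and Ccnd1 had a correlation of 0.972, Myc and Mxd1 of -0.92 and Myc and Cdkn1a of 0.03.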

How the data were processed

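Ribosomal RNA was depleted and bulk RNA seq libraries were prepared with a kit for stranded total RNA. According to the methods and the submitters' processing notes, reads were checked with FastQC 0.11.9 and aligned with STAR 2.7.6a to GRCm39. The table deposited by the authors holds unnormalised featureCounts counts for 17723 genes, none with a highest count under 11, and they used DESeq2 1.30.0 for their own tests. For featureCounts the version, annotation and strand setting were not stated, so genes with exons overlapping on the other strand, which include Myc, Mxd4, Mnt, all 3 D-type cyclins and Cdkn1a, are uncertain to that extent, as is Ccnd3 for its pseudogene copy Ccnd3-ps (15 to 38 counts).

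From the counts, genes were filtered with filterByExpr (minimum count 10, minimum total 15) and scaled by TMM. All 12 libraries entered 1 edgeR 4.0.16 model (R 4.3.3) with a mean for each group, and 5 comparisons between groups and the interaction (the effect of DKK1 with IL-13 minus that without) were tested by quasi-likelihood with Benjamini-Hochberg adjustment over 16306 genes. SEs are the log2 fold change over the root of the F statistic, and correlations were taken on log2 CPM (prior count 2). The edgeR fit was tested on simulated data. GENCODE vM39, on the same build as the counts, gave positions, lengths and promoter windows (that of Ccnd1 is not reported here) and held 99.6% of the IDs. The chi-square per gene between replicates was 4.11 to 9.46, where 1 is counting error, so no library was a copy of another. A depth of 32224036 to 40917086 counts per library left little counting error except in Ccnd2 and genes of a few CPM. Myc with DKK1 alone also rested on few counts, 72 to 86 per library, in the range where even counts were frequent.

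The 10 genes and the companion lists were chosen with earlier results of these data known. Named besides the 10 were Mxi1, Mxd3, Mlx, Cdk4, Cdk6, Rb1, E2f1, Cdkn1b, Trp53, Mdm2 and Mki67, of each list and comparison up to 4 called genes with the smallest adjusted p, and for 7 members the 3 genes most like them with at least 10 CPM in some group. Ccne1 with DKK1, Bysl, LTO1, Dino and the marker genes were named outside this rule, after their values were seen. Alternatives were DESeq2 1.42.0, its size factors, library size only, no filter, the adjusted p alone, the replicate number as a block, and each library left out in turn.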

Additional observations from a re-analysis of the deposited data

Results flagged for a closer look

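For 14 of the genes named here the effect of DKK1 differed between cells with and without IL-13, by edgeR's test of the interaction with an absolute log2 value above 1. Each value is the log2 fold change with DKK1 in the presence of IL-13 minus that in its absence, over 12 libraries. Among the members it was 2.15 for Myc, 2.07 for Ccnd1, 1.54 for Ccnd2 and -1.08 for Cdkn1a, which were chosen with such contrasts in view. Among ERK output genes it was 3.86 for Egr1, 2.22 for Etv5, 1.41 for Dusp4 and 1.35 for Dusp6. Egr1 was at 2.35 to 2.80 CPM with IL-13 and 4.58 to 11.2 CPM with both, against 20.1 to 26.2 CPM untreated and 2.78 to 8.28 CPM with DKK1. Maf, a macrophage transcription factor gene, had 1.22, at 587 to 601 CPM untreated, 571 to 609 with DKK1, 297 to 324 with IL-13 and 707 to 755 with both. Negative values were those of Ccne1 (-1.37), Phlda3 (-1.62), Mthfd2 (-1.02), Cdkn2d (-1.03) and Mycl (-4.50). The value of Mycl depends on the prior count, because all libraries with both were at 0 counts.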

How the results depend on the processing

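Of the 60 log2 fold changes of the 10 genes, all 60 kept direction and call with DESeq2's Wald test, with DESeq2 size factors, without the filter and with the replicate block. With scaling by library size alone 57 did. That scaling moved the median of all genes by -0.12 in DKK1 against untreated, turned Myc in both against untreated from 0.04 to -0.020 and the Max interaction from -0.05 to 0.026, and brought Ccnd2 with DKK1 past the threshold (-1.05). Of 720 values with 1 library left out, 713 kept direction and call, 4 passed the threshold and 3 turned. Myc in both against untreated ranged from -0.057 (without the third untreated library) to 0.151 and was -0.018 without the first library with both. Ccnd2 in both against untreated ranged from -0.353 to 0.072, the latter without the third library with both. The change with IL-13 ranged from -0.159 to 0.036 for Cdk6 and from -0.085 to 0.019 for Mlx, both positive only without the first untreated library. The members called ranged over 3 to 4, 0 to 0, 0 to 1, 1 to 1, 2 to 3 and 4 to 4 for DKK1, IL-13 and both against untreated, DKK1 added to IL-13, IL-13 added to DKK1 and the interaction. The extra calls were Ccnd1 in both against untreated (-1.02, without the third untreated library) and Ccnd2, with DKK1 (-1.15) and in both against DKK1 (1.04), each without the second DKK1 library, the former also without the third untreated library (-1.05). All genes called ranged over 1788 to 1902, 1241 to 1431, 1825 to 1962, 1639 to 1765, 847 to 930 and 661 to 801. The adjusted p alone passed 9, 8, 7, 8, 8 and 6 of the 10 genes, and 7432, 7671, 8075, 7242, 6408 and 4282 of all genes, because it drops the fold threshold. Ccnd3 over Ccnd1 per length was 0.419, 0.297, 12.1 and 1.57 by exon union and 0.810, 0.575, 23.4 and 3.03 by the longest transcript in untreated, IL-13, DKK1 and both.

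No clear pairing by replicate number was seen, though 3 libraries per group cannot exclude it. The deviations of same-numbered libraries correlated at -0.064 to 0.082 over 18 pairs (median 0.020). Those of differently numbered libraries correlated at -0.065 to 0.072 over 36 pairs (median -0.011). With the replicate block 1888, 1328, 1928, 1741, 898 and 769 genes were called in the same 6 comparisons, against 1899, 1326, 1930, 1754, 898 and 754 without it. Among the members and the list genes refitted with it, the block ended the call of the Mycl interaction (-4.55) and changed no other call. Calls that other alternatives ended were those of Nop58, Ldha (0.95 with library size alone), Ccne1, E2f7, Apcdd1 and Cdkn2c with DKK1, E2f2, Ccna2 and Cdkn2c with IL-13, Apcdd1 and Dusp4 in both against untreated, Dusp4 and Pmaip1 with DKK1 added to IL-13, Cdk1 with IL-13 added to DKK1, and the interactions of Cdkn2d, Mthfd2 and Mycl. The cause of these changes was not tested. Depth limits the values of genes with few counts, such as Ccnd2, Mycl and Apcdd1, and of Myc with DKK1 alone.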
